A study of Homo sapiens with 15 samples.

Results

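The genes described here are the 10 that encode cohesin and its main regulators: the ring subunits SMC1A, SMC3, RAD21, STAG1 and STAG2, the loader NIPBL, the release and cofactor proteins WAPL, PDS5A and PDS5B, and the acetyltransferase ESCO2. They were taken by name, and every intron assigned to them was followed: 234 introns, of 111143 listed for any comparison in the whole series. RNA with poly(A) tails was sequenced from HCT116 cells, an established human line from a colon carcinoma. Wild-type cells (WT) and 4 clones labelled bktRNA1-/-, named KO-1 to KO-4, gave 3 libraries each, and all were grown in DMEM with serum and no other treatment named. The labels do not say what bktRNA1 is, and its level was not analysed here. Each clone is 1 isolate and there is 1 WT line, so a test compares 1 isolate with 1 line, and the genotype and differences between isolates cannot be told apart. For each intron the authors' tables count 2 kinds of read in every library. Retained reads hold intron sequence, and spliced reads join the exons on its sides. The retention level is the length-scaled share of retained reads, in percent.

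Cohesin is a ring-shaped complex that encircles DNA. SMC1A and SMC3 form the ring with the kleisin RAD21, which binds a STAG subunit. The complex holds sister chromatids together from replication until mitosis, and between divisions it extrudes the chromatin loops that CTCF bounds. NIPBL loads cohesin and drives loop extrusion, WAPL with a PDS5 protein opens the ring, and ESCO2 acetylates SMC3 in S phase, which makes the ring resistant to WAPL.

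The 15 libraries held 17287797 to 35348260 junction reads over the 83066 introns listed for all 4 clones, with the 3 lowest totals in KO-1. No 2 libraries were identical in any of the 105 pairs. Of these reads, 19757 to 42665 per library were spliced reads of the cohesin genes. EPCAM, KRT8, KRT18 and KRT19, which mark epithelium, had means of 8992.5 to 63999.9 scaled spliced reads in WT, and CDH1 was listed only in part of the tables. No intron of PTPRC, COL1A2 or PECAM1, markers of leukocytes, fibroblasts and endothelium, was listed, and COL1A1 stood at 158.9. The markers differed between clones. EPCAM was lower in KO-1, KO-2 and KO-4 (means of 4328.7, 4526.6 and 6065.1), KRT19 was higher in all 4 clones, KRT8 and KRT18 were higher in KO-3, and COL1A1 was higher in KO-4 (247.4), each past the threshold of 0.05 by the limma test described below. The part of these differences in the results below was not tested.

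All 10 genes were expressed in WT cells, with the highest mean of spliced reads per junction in RAD21 and the lowest in PDS5B. A junction has the same length in every gene, so scaled reads per junction were set side by side. These means also depend on which introns were listed and on the slope of reads along the gene. In WT the log2 ratio of reads in the 3′ part to the 5′ part ran from -0.456 (ESCO2) to 1.59 (RAD21). The 9 introns of ESCO2 include an interval with no spliced read in WT, described below. Its part in the ESCO2 ratio was not tested. For the percentages below, cohesin genes entered with introns of the reference transcript only. All genes entered with every intron listed for all 4 clones, so the percentages are approximate. RAD21 stood highest, at 767 ± 27.1 reads per junction (SD, n = 3 here and below), above 93.2% of the genes measured. SMC1A followed at 269 ± 4.71, PDS5A at 257 ± 8.89 and SMC3 at 215 ± 2.01. The ranges of SMC1A and PDS5A overlapped. STAG2 had 152 ± 0.738, WAPL 126 ± 4.82, ESCO2 102 ± 2.88 and STAG1 87.5 ± 1.62. NIPBL and PDS5B were lowest and overlapped, at 73.8 ± 4.56 and 69.0 ± 4.25, and PDS5B stood above only 30.4% of genes. STAG2 stood above its paralogue STAG1 and PDS5A above its paralogue PDS5B, in each case without overlap between libraries.

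Introns of the cohesin genes were removed almost completely in WT cells. Of the 199 with no annotated exon inside, 178 (89.4%) had a WT retention level under 1%, and their median was 0.18%. Over all 68806 introns of that kind in the series, 60.7% were under 1% and the median was 0.586%. Summed over such introns, each of the 10 genes lay between 0.186% ± 0.127 (STAG2) and 0.519% ± 0.0851 (SMC3). Intron 19 of 28 of SMC3 (chromosome 10, 110596551 to 110598138, hg38, between coding exons) was one of the few above this level. Its retention was 1.23%, 4.39% and 3.47% in the WT libraries, so these already differed more than 3-fold.

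NIPBL, the loader, has a pair of listed last introns that end at the same acceptor (chromosome 5, 37064526). Intron 46 of 46 starts at 37063979 and the shorter one at 37064020, which is 41 bases downstream. The sequence around both donors is shown because the choice between them sets the end of the exon before. It is from GENCODE transcript NIPBL-202, whose last exon runs through both sites (GRCh38, chr5:37063949-37064023, plus strand). Capitals mark the first 2 intron bases at each donor:
NIPBL: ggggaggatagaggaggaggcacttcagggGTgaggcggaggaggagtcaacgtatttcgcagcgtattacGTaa

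STAG2, the ring-binding subunit, has an optional coding exon of 111 bases, which is 37 codons and keeps the reading frame (GRCh38, chrX:124090854-124090964, plus strand). It is shown in capitals between the ends of its neighbouring exons, 20 bases on each side, from transcript STAG2-201. PDS5B, the PDS5 paralogue, has 2 donors 6 bases apart at the end of 1 coding exon (GRCh38, chr13:32764559-32764594, plus strand, from PDS5B-201). Capitals mark the 6 bases that belong to the exon only when the downstream donor is used, and the first of them are GT:
STAG2: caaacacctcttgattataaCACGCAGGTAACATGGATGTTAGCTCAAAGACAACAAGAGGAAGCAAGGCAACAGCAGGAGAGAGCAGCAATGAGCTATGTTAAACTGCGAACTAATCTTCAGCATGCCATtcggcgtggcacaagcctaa
PDS5B: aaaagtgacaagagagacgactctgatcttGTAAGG

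The highest apparent retention fell where the annotation (GENCODE release 29) has another form of the same gene. WAPL intron 1 (chromosome 10, 86521542 to 86521674, in the 5′ untranslated region) had 777 retained and 1 spliced read in WT and lies inside an exon of transcript WAPL-202. An interval of ESCO2 (chromosome 8, 27803374 to 27808193) had 378 retained and 0 spliced reads in WT and holds an exon of ESCO2-201. In both genes, the form counted as retained was the form in use in nearly all reads of every group. Likewise, the pair of NIPBL introns described above lies over the last exon of NIPBL-202.

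The first comparison asked whether cohesin introns were retained differently in any clone. No intron of the 10 genes passed the test in any clone. SMC3 intron 19 had the largest difference in KO-1, where all 3 libraries (5.92%, 6.25% and 5.61%) lay above all 3 of WT. PDS5A, whose protein works with WAPL, had higher means in all 4 clones at its last intron (intron 32 of 32, chromosome 4, 39825489 to 39837855), but every clone overlapped WT. The test compared the odds of retention between the libraries of 2 groups in a quasi-binomial model, with Benjamini-Hochberg adjustment over all introns tested and a threshold of 0.05. It could be applied to 9, 9, 10 and 9 cohesin introns in KO-1 to KO-4, where retained reads and spliced reads each averaged 10 or more. Over the whole series 1.47%, 1.6%, 0.713% and 1.97% of introns tested were called in KO-1 to KO-4. At unadjusted p under 0.05 there was 1 cohesin intron in KO-1, 1 in KO-4 and 0 in KO-2 and KO-3, and a limma test of the log2 odds called 0 as well. With no minimum of reads, the test called 0 of 188, 189, 196 and 197 listed introns, with 10, 12, 11 and 13 at unadjusted p under 0.05. Of these listed introns, 28, 24, 32 and 30 had no retained read in WT. They were listed through the clone alone and could only come out higher. With so few retained reads in most introns, these counts do not show that retention was unchanged.

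**Figure D1:**
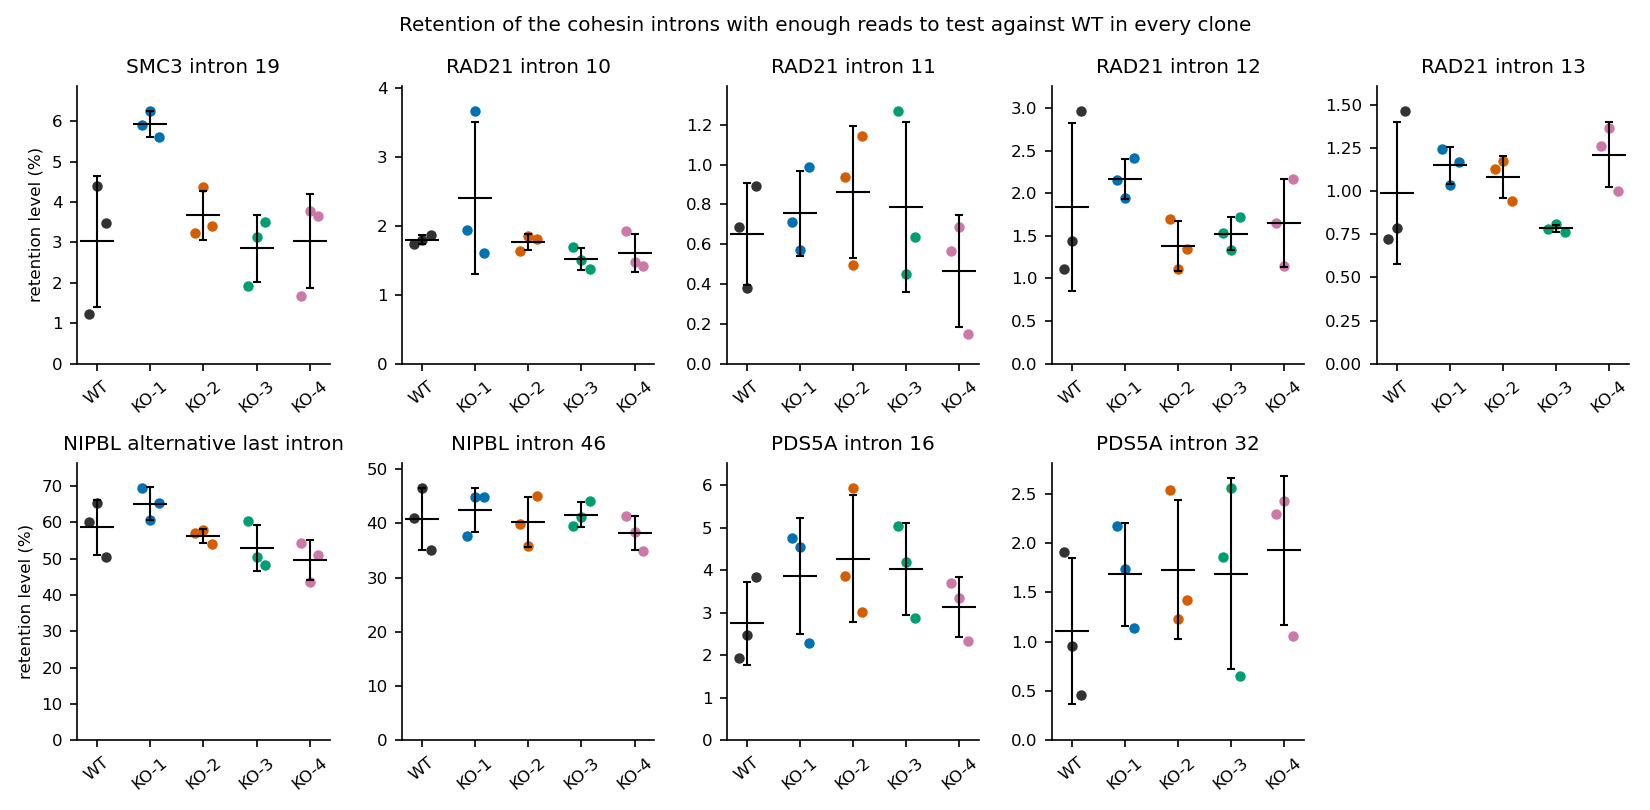
Retention level (%, y axis) of the 9 cohesin introns with enough reads in every comparison, for WT and the 4 clones (x axis). Points are the 3 libraries and bars are mean ± SD. The KO-1 libraries of SMC3 intron 19 lie above the 3 WT libraries, and the NIPBL introns sit far above the rest in every group.

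In SMC3 intron 19 the mean was 3.03% ± 1.63 in WT (53 retained and 810 spliced reads in all) and 5.93% ± 0.321 in KO-1 (49 and 387). The log2 odds of retention differed by 0.95 ± 0.40 (SE; adjusted p = 0.35, quasi-binomial test). The means in KO-2, KO-3 and KO-4 were 3.67% ± 0.613, 2.86% ± 0.832 and 3.04% ± 1.17, all overlapping WT. The last intron of PDS5A stood at 1.11% ± 0.737 in WT and at 1.68% ± 0.519, 1.73% ± 0.706, 1.69% ± 0.967 and 1.92% ± 0.756 in KO-1 to KO-4. Its smallest adjusted p was 0.36, in KO-4 (log2 odds 0.83 ± 0.42). Intron 16 of PDS5A (39890365 to 39898388), which holds the last exon of the short transcript PDS5A-202, had 2.75% ± 0.983 in WT, with clone means from 3.13% ± 0.707 (KO-4) to 4.28% ± 1.51 (KO-2).

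RAD21, the kleisin that closes the ring, had 4 introns tested in every clone (introns 10 to 13 of 13). Intron 10 stood at 1.8% ± 0.0649 in WT and between 1.52% ± 0.16 in KO-3 and 2.4% ± 1.1 in KO-1, where 1 library reached 3.66%. Intron 11 had 0.651% ± 0.258 in WT, intron 12 1.84% ± 0.987 and intron 13 0.99% ± 0.411. Over these 4 introns and the 4 clones the log2 odds differed from WT by -0.40 to 0.47, against standard errors of 0.28 to 0.47. A RAD21 intron from an alternative first exon (116866762 to 116874362) had enough reads in KO-3 only, and its level was 8.39% ± 3.11 in WT and 10.6% ± 4.65 in KO-3. In NIPBL, the last intron had a level of 40.9% ± 5.71 in WT and 42.5% ± 4.13, 40.3% ± 4.59, 41.6% ± 2.34 and 38.3% ± 3.17 in KO-1 to KO-4. For the shorter interval the level was 58.7% ± 7.56 in WT and 65.2% ± 4.46, 56.3% ± 1.92, 53.0% ± 6.38 and 49.6% ± 5.59. Since the last exon of NIPBL-202 runs over both donors, its reads can count as retained for both introns.

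SMC1A, STAG1, STAG2, WAPL, PDS5B and ESCO2 had no intron with enough reads in any clone. Over all cohesin introns tested, the 95% intervals lay between -1.38 and 1.76 in log2 odds, with standard errors of 0.278 to 0.535. Among the 4 clones, 0 of the 9 introns differed past the threshold (smallest adjusted p = 0.21, quasi-binomial test; 1 at unadjusted p under 0.05, SMC3 intron 19), against 6.41% of all introns tested that way.

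To gain depth, introns of a gene were then pooled, a comparison added after the single introns were seen. Introns with no exon inside entered where the mean over all 15 libraries was at least 1 retained and 10 spliced reads, so an intron could enter through any group. SMC3 had 0.704% ± 0.189 in WT over 15 introns, with 0.497%, 0.747% and 0.868% in its libraries. KO-1 had 1.2%, 1.23% and 1.41%, all above WT, and the log2 odds differed by 0.86 ± 0.27 (adjusted p = 0.14). In KO-2, KO-3 and KO-4 the SMC3 differences were 0.60 ± 0.27, 0.53 ± 0.26 and 0.31 ± 0.27 (adjusted p = 0.48, 0.90 and 0.66). PDS5A differed by 0.69 ± 0.34, 0.70 ± 0.31, 0.40 ± 0.33 and 0.60 ± 0.31 (adjusted p = 0.48, 0.49, 0.95 and 0.38). None of the 7 genes with enough reads passed in any clone, where 1.07%, 0.67%, 0.345% and 1.3% of all genes tested did. At unadjusted p under 0.05 stood SMC3 in KO-1, KO-2 and KO-3 and PDS5A in KO-1 and KO-2, and limma called 0. Without the WT library listed 3rd, 1 gene was called in KO-1, SMC3 (adjusted p = 0.0075), and without the one listed 1st its adjusted p was 0.46. STAG2, PDS5B and ESCO2 had too few retained reads. With no minimum per intron, 26 introns of SMC3 gave 0.53% ± 0.0862 in WT and 0.876%, 0.835% and 0.934% in KO-1 (log2 odds 0.74 ± 0.26, adjusted p = 0.24), and no cohesin gene passed in any clone.

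The authors' deposited table had a false discovery rate under 0.05 for 1 cohesin intron, PDS5A intron 3 (chromosome 4, 39926862 to 39927960, between coding exons): 0.0039 in KO-2 and 0.047 in KO-4. Its level was 0.483%, 0.389% and 2.22% in the WT libraries, from 1, 1 and 4 retained reads. In KO-2 it was 5%, 6.9% and 5.19%, and in KO-4 4.23%, 4.17% and 4.23%, from 6 to 8 retained reads per library. Both clones lay above WT without overlap, and these counts were under the minimum of 10 retained reads used for the test here. Run with no minimum of reads, the test here did not call this intron in either clone.

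The choice between splice sites was compared next, at the sites printed above and at the first introns of RAD21 and STAG2, as the share of spliced reads that 1 junction takes at a shared donor or acceptor. No choice between sites in a cohesin gene differed past the threshold in any clone. In NIPBL the downstream donor took 27.8%, 30.6% and 25.3% of the spliced reads in WT. Its mean was 27.9% ± 2.69 in WT and 29.1% ± 3.66, 29.5% ± 4.66, 34.0% ± 5.75 and 31.4% ± 4.33 in KO-1 to KO-4. The largest difference, in KO-3, was 0.43 ± 0.36 in log2 odds (95% interval -0.28 to 1.14; adjusted p = 0.63, quasi-binomial test). In PDS5B the upstream donor, which leaves out the 6 bases, took 30.3% ± 7.06 in WT and 33.1% ± 0.924, 31.6% ± 4.67 and 31.1% ± 1.97 in KO-2 to KO-4.

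The optional exon of STAG2 was joined to the exon before it by 20.5% ± 5.19 of the reads leaving that exon in WT. The shares were 16.1% ± 3.9, 22.0% ± 0.681 and 21.1% ± 3.92 in KO-2 to KO-4. Of the reads entering the exon after it, 22.5% ± 2.91 came from the optional exon in WT and 16.2% ± 2.73 in KO-2, where all 3 libraries (14.6%, 14.7% and 19.4%) lay below the 3 of WT. That difference was -0.56 ± 0.26 in log2 odds (adjusted p = 0.19). At the start of STAG2 a first intron (chromosome X, 123960867 to 124022530) took 53.6% ± 5.97 of the reads at its acceptor in WT and 43.6% ± 6.0 in KO-2 (adjusted p = 0.37). The STAG2 and PDS5B minor junctions were not tested in KO-1, and this first intron of STAG2 was tested in KO-2 only. RAD21 used the less frequent donor of its first intron in 21.9% ± 1.12 of reads in WT and in 22.0% ± 1.71, 25.2% ± 1.5, 24.99% ± 1.14 and 26.4% ± 6.31 in KO-1 to KO-4. All libraries of KO-2 and KO-3 lay above those of WT at this site (log2 odds 0.27 ± 0.25 and 0.25 ± 0.23, adjusted p = 0.61 and 0.69). Of 2, 6, 5 and 5 cohesin junctions tested in KO-1 to KO-4, 0 were called by the quasi-binomial test or by limma, with 1 at unadjusted p under 0.05 in KO-2 and 0 in the others. Of all junctions tested, 5.44%, 7.34%, 2.67% and 6.09% were called. Among the clones 0 of 2 differed (adjusted p = 0.89 and 0.79), against 20.6% of all.

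**Figure D2:**
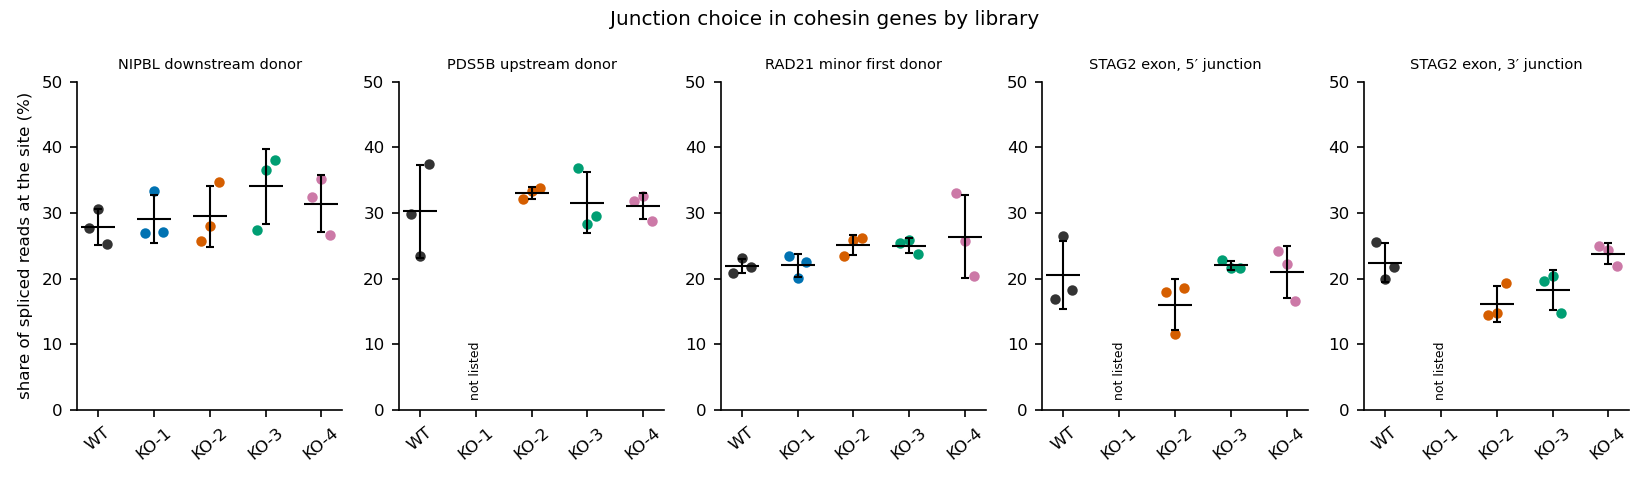
Share of spliced reads (%, y axis) that 1 junction takes at a shared splice site in NIPBL, PDS5B, RAD21 and STAG2, for WT and the clones (x axis). Points are the 3 libraries and bars mean ± SD. KO-2 lies above WT at the RAD21 site and below it at the STAG2 acceptor, without overlap and without passing the test, and "not listed" marks KO-1 where the junction is not in its table.

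The clearest differences were in the number of spliced reads per gene. SMC3, a ring arm, and PDS5A, a cofactor of ring opening, were lower in all 4 clones. KO-2 had the most genes lower, 7 of 10, and the largest fall, that of ESCO2. NIPBL, WAPL and PDS5B passed the test in no clone, and no cohesin gene was higher. In KO-2, NIPBL and WAPL each passed under 1 of 15 alternative settings. The test was limma on the log2 of spliced reads, summed over the 9 to 27 introns per gene listed for all 4 clones and scaled by the median ratio, with adjustment over 9471 genes. The 4 comparisons share the same 3 WT libraries. The reads stand in for expression and are from bulk RNA, in which fewer cells of a kind and less RNA per cell cannot be told apart.

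**Figure D3:**
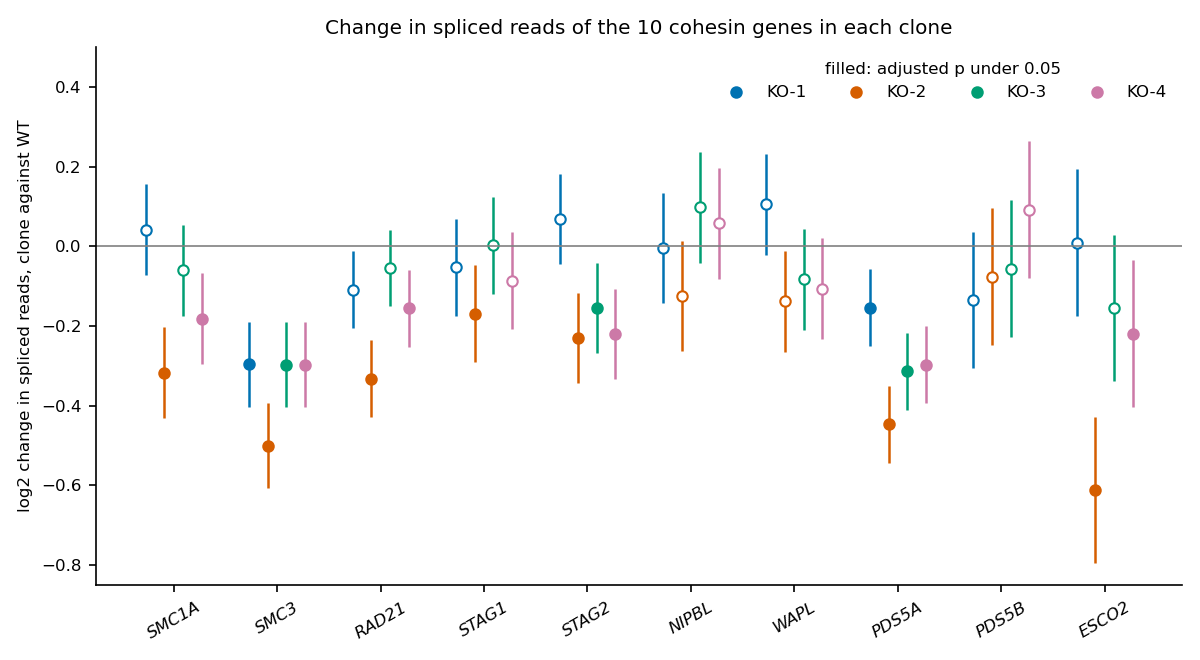
Log2 change in spliced reads against WT (y axis) of each cohesin gene (x axis) in the 4 clones, with 95% intervals. Filled points have an adjusted p under 0.05. SMC3 and PDS5A are filled in all 4 clones, and NIPBL, WAPL and PDS5B in none.

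Lower by the test were 2, 7, 3 and 6 of the 10 genes in KO-1 to KO-4, where 12.4%, 21.1%, 15.6% and 24.2% of all genes were lower. Higher were 0 in each clone, where 13.8%, 21.9%, 15% and 24.6% of all genes were. At unadjusted p under 0.05 there were 3, 8, 3 and 6 lower or higher. The median change of the 10 genes was -0.03, -0.27, -0.07 and -0.17 in log2, beside medians over all genes between -0.00258 and 0.00246. SMC3 and PDS5A are 2 of the 101 genes (1.07%) that were lower in all 4 clones.

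Among the ring subunits, SMC3 had 5748, 5846 and 5837 scaled reads in the WT libraries. It had 5050, 4644 and 4520 in KO-1, 4066, 4176 and 4079 in KO-2, 4644, 4849 and 4697 in KO-3, and 4678, 4466 and 5062 in KO-4. No clone library reached the lowest WT library. The log2 changes were -0.30, -0.50, -0.30 and -0.30 (each ± 0.05 SE; adjusted p = 0.00016, 7e-08, 0.00016 and 5.6e-05 by limma). SMC1A, the other arm, had 4841 ± 84.7 in WT. It was lower in KO-2, at 3893 ± 276 (log2 change -0.32, adjusted p = 7.1e-05), and in KO-4, at 4269 ± 120 (-0.18, adjusted p = 0.009), both without overlap. KO-1 and KO-3, at 4990 ± 323 and 4643 ± 116, overlapped WT.

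RAD21 had 10289, 10152 and 9613 scaled reads in WT and fell in KO-2 to 7979, 8015 and 7879 (log2 change -0.33 ± 0.05, adjusted p = 5.3e-06). In KO-4 it had 8603, 9112 and 9258 (-0.16 ± 0.05, adjusted p = 0.0081, or 0.058 without the library listed 1st). The KO-1 libraries (8990 to 9535) also lay below WT, but with an adjusted p of 0.09, and KO-3 overlapped WT. STAG2 had 1976 ± 9.6 in WT and fell in KO-2 (1684 ± 24.9, adjusted p = 0.0015), KO-3 (1777 ± 109, adjusted p = 0.034) and KO-4 (1697 ± 44.3, adjusted p = 0.002). The KO-3 call was lost without any of the WT libraries or the KO-3 library listed 2nd or 3rd (adjusted p = 0.07 to 0.16). In KO-1 STAG2 had 2072 ± 44.3, above WT without overlap, with an adjusted p of 0.39. Its paralogue STAG1 had 1662 ± 30.7 in WT and was lower in KO-2 (1480 ± 94.6, adjusted p = 0.023), a call that was lost without the 2nd listed WT library or the KO-2 library listed 2nd or 3rd (adjusted p = 0.074 to 0.11). Its KO-4 libraries (1507 to 1617) also lay below WT, with an adjusted p of 0.23.

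Of the factors that act on the ring, PDS5A had 5446, 5683 and 5834 scaled reads in WT. KO-1 had 5028, 5072 and 5134, KO-2 had 4140, 4113 and 4185, KO-3 had 4365, 4590 and 4694, and KO-4 had 4636, 4413 and 4759. All 12 clone libraries lay below WT, with log2 changes of -0.15, -0.45, -0.31 and -0.30 (each ± 0.05) and adjusted p of 0.017, 8.6e-08, 2.9e-05 and 1.7e-05 by limma. The call in KO-1 was lost when the 2nd or the 3rd listed WT library was left out (adjusted p = 0.05 and 0.069). PDS5B had 759 ± 46.8 in WT and 693 ± 63.3 to 809 ± 38.2 in the clones. The 95% interval of its log2 change reached from -0.31 in KO-1 to 0.26 in KO-4. NIPBL had 1199 ± 77.5 in WT and between 1099 ± 36.1 (KO-2) and 1281 ± 36.6 (KO-3). WAPL had 1512 ± 57.8 in WT and between 1373 ± 25.5 (KO-2, adjusted p = 0.072) and 1626 ± 98.4 (KO-1, adjusted p = 0.22).

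ESCO2, the acetyltransferase of S phase, had 822, 829 and 786 scaled reads in WT and 527, 534 and 533 in KO-2. That is a change of -34.5% (log2 change -0.61 ± 0.09, adjusted p = 7.9e-06 by limma). In KO-4 it had 698 ± 35.7 (-0.22 ± 0.09, adjusted p = 0.045), and that call was lost without any of the WT libraries or without the KO-4 library listed 1st or 2nd (adjusted p = 0.051 to 0.16). KO-3 was spread from 619 to 847 and overlapped WT, and was called lower only without its highest library, listed 2nd (adjusted p = 0.031). KO-1 had 818 ± 43.0 and overlapped WT.

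**Figure D4:**
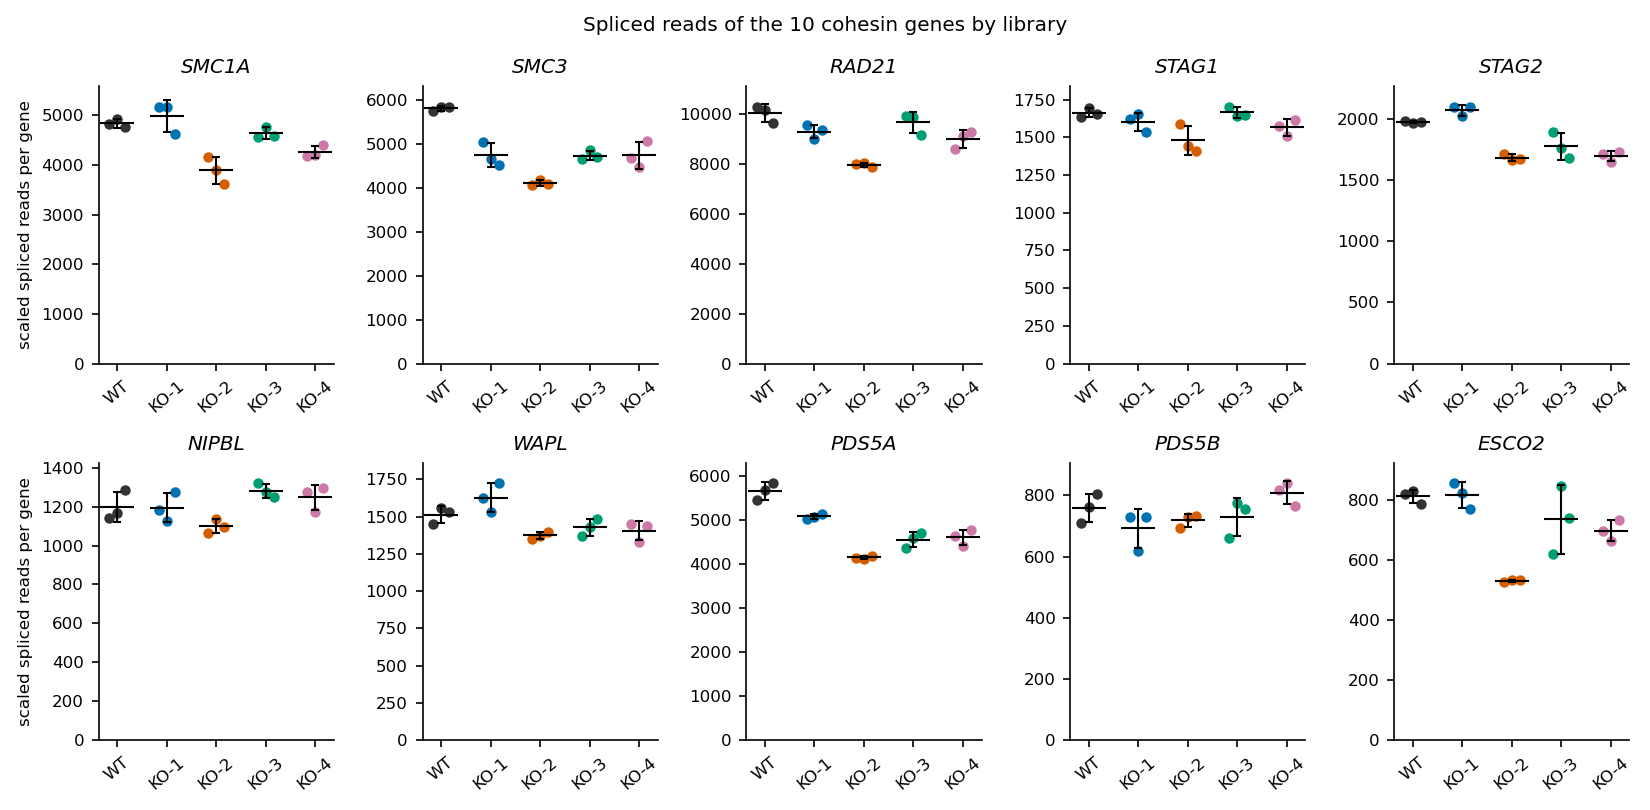
Scaled spliced reads per gene (y axis, from 0) of the 10 cohesin genes in WT and the clones (x axis). Points are the 3 libraries and bars mean ± SD. All clone libraries of SMC3 and PDS5A lie below their 3 WT libraries, and the 3 KO-2 libraries of ESCO2 lie near 530.

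The clones differed from each other. A limma test of equality of the 4 clones passed for 8 of the 10 genes, where 75.4% of all genes did, and STAG1 (adjusted p = 0.066) and PDS5B (adjusted p = 0.085) did not pass. For SMC1A the means ran from 3893 in KO-2 to 4990 in KO-1, with KO-4 and KO-3 between them. KO-2 had the lowest mean of the 5 groups for 9 genes, and PDS5B was lowest in KO-1.

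The clones also differed in where along the gene the reads lay. In KO-1 the difference of SMC3 from WT was about as large near the 3′ end as near the 5′ end. In KO-2, KO-3 and KO-4 the introns nearest the 5′ end were the lower ones in all 10 cohesin genes, by the medians of each end, and over all genes the median slope shifted the same way. An end held from 2 introns (ESCO2) to 9 (SMC3), and the 5′ end of WAPL includes its intron 1, with 1 spliced read in WT. Over 3751 genes with at least 9 introns, the median log2 ratio of spliced reads in the 3′ part to the 5′ part of the gene, the outer of 3 equal parts of its introns, was 0.586 to 0.635 in the WT libraries and 0.601 to 0.607 in KO-1. It was 0.778 to 0.822 in the 9 libraries of KO-2, KO-3 and KO-4, with no overlap with WT. Poly(A) selection keeps RNA by its 3′ end, and the part of this slope in the lower counts was not tested beyond counting each end alone. The integrity of the RNA was not analysed here.

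**Figure D5:**
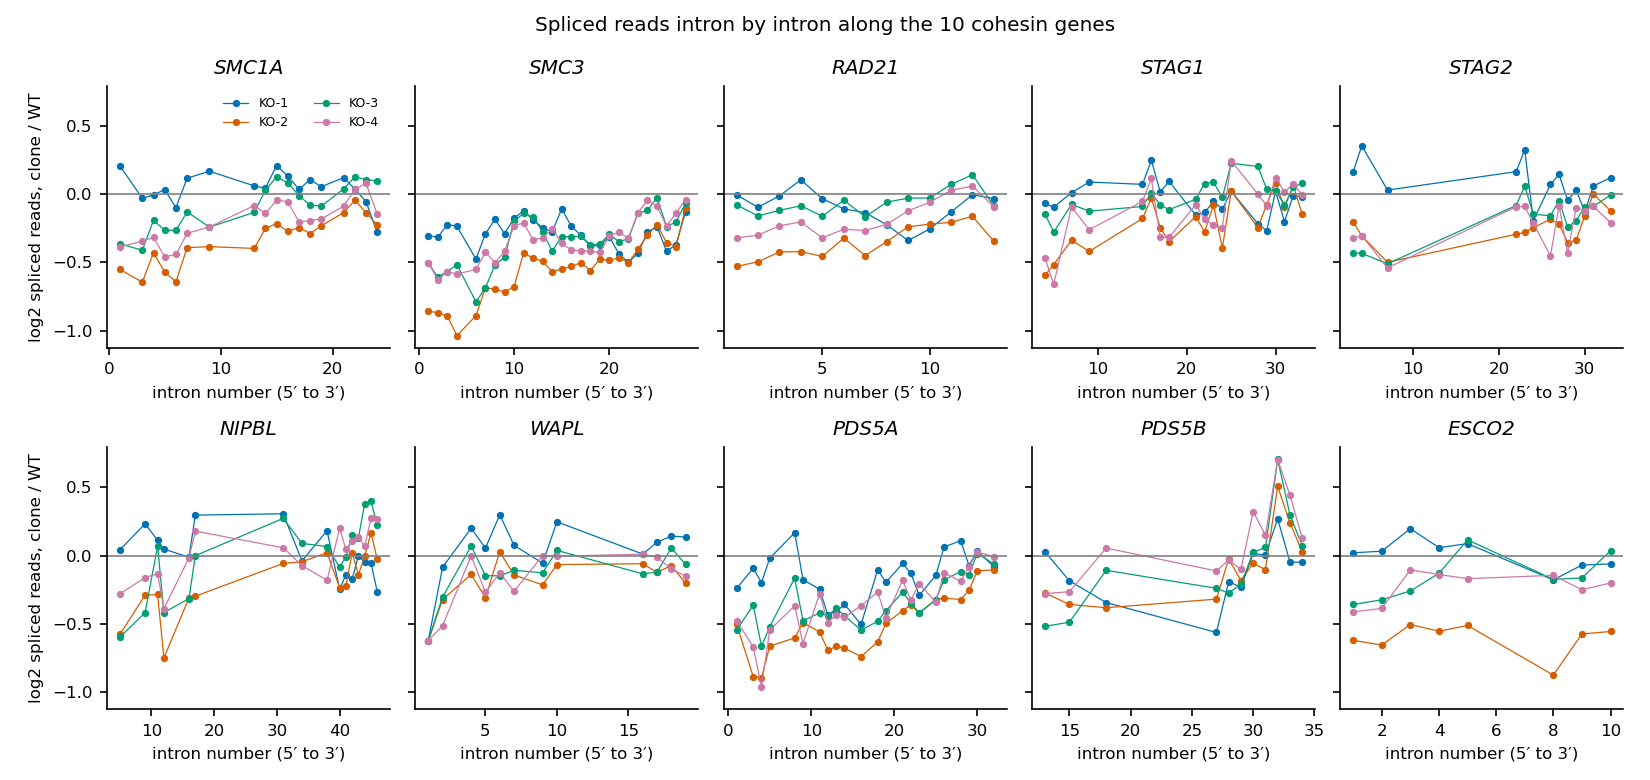
Log2 ratio of scaled spliced reads, clone over WT (y axis), intron by intron from 5′ to 3′ (x axis) in each cohesin gene. Each point is 1 intron of the reference transcript listed for all 4 clones and lines join the introns of 1 clone. KO-2, KO-3 and KO-4 start below 0 at the 5′ end and rise toward 0 in most genes, and KO-1 is flatter. The first WAPL point, -0.623 in every clone, is intron 1, which had 1 spliced read in WT and none in the clones.

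In SMC3 the median log2 ratio to WT over the 9 introns nearest the 5′ end was -0.29, -0.86, -0.52 and -0.50 in KO-1 to KO-4. Over the 9 nearest the 3′ end it was -0.37, -0.39, -0.20 and -0.14. In PDS5A it went from -0.60 to -0.31 in KO-2 and from -0.55 to -0.13 in KO-4. In ESCO2 it was nearly level in KO-2, at -0.64 and -0.57. The 3′ to 5′ ratio was steeper than in WT for 0, 6, 4 and 4 of the 10 genes by limma, beside 0.88%, 16.9%, 15% and 25% of all genes in either direction, and flatter for 0. The genes called in KO-2 were SMC1A, SMC3, RAD21, STAG1, PDS5A and PDS5B, with log2 differences of 0.22 to 0.48, where the median over all genes was 0.16. SMC1A, PDS5A and PDS5B were called in KO-3 and KO-4 as well, with NIPBL in KO-3 and RAD21 in KO-4. The smallest differences in KO-2 to KO-4 were 0.030 ± 0.164 (SE) for ESCO2 in KO-2 and 0.043 ± 0.159 for WAPL in KO-3, each under its SE.

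The counts were therefore taken again from each end, a choice made after seeing the data. Each end was scaled by its own median ratio, so a shift along the gene shared by most genes was scaled out. These changes are thus not on the scale of the medians per intron above, which used the scaling of whole genes. With introns of the 3′ part only, 2, 6, 2 and 5 genes were lower in KO-1 to KO-4, where 11.6%, 21.8%, 13.8% and 24.4% of all genes were. The 2 in KO-1 were SMC3 and RAD21. With the 5′ part only, 1, 7, 2 and 3 were lower, beside 8.51%, 20.2%, 13.1% and 20.8% of all genes. The 7 in KO-2 included NIPBL (log2 change -0.335), which had not passed over the whole gene. SMC3 was lower in all 4 clones from either end, with log2 changes of -0.35, -0.42, -0.24 and -0.27 at the 3′ end. PDS5A was lower in KO-2, KO-3 and KO-4 from either end and not in KO-1 (adjusted p = 0.46 at the 3′ end). ESCO2 in KO-2 changed by -0.63 at the 3′ end and -0.49 at the 5′ end. With only the most read intron of each gene, 1, 3, 0 and 0 genes were lower, beside 7.46%, 13.3%, 7.85% and 17.6% of all genes. SMC3 then had log2 changes of -0.27, -0.33, -0.15 and -0.08 (adjusted p = 0.03, 0.0041, 0.25 and 0.52). PDS5A passed in no clone, and RAD21 and ESCO2 passed in KO-2.

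Many other genes of the pathway were lower in KO-2. Of 18 measured genes, from a list of 22 that includes CTCF, the NIPBL partner MAU2, the cohesion protector CDCA5 and the mitotic kinase PLK1, 12 were lower in KO-2 (median log2 change -0.22), 2 in KO-1, 0 in KO-3 and 3 in KO-4. Higher were 1, 0, 3 and 3. Over all genes 12.4%, 21.1%, 15.6% and 24.2% were lower in KO-1 to KO-4, and these shares hold beside the other lists too. Aurora kinase B (AURKB), which acts on mitotic chromosomes, was lower in KO-2 (-0.19, adjusted p = 0.0086) and higher in KO-3 (0.15, adjusted p = 0.048) and KO-4 (0.21, adjusted p = 0.0038). The condensin genes, for the related complex that compacts mitotic chromosomes, were lower in KO-2 for 8 of 8, in KO-1 for 0, in KO-3 for 1 and in KO-4 for 2, and higher for 2, 0, 1 and 1 in KO-1 to KO-4. Of these, NCAPG had 6373 ± 149 scaled reads in WT and was lower in KO-2 (-0.21) but higher in KO-1 (0.27) and KO-3 (0.14). NCAPD3 was lower in KO-2, KO-3 and KO-4 by -0.20 to -0.22. Of 7 genes of the SMC5/6 complex, a relative of cohesin in DNA repair, 2, 3, 2 and 1 were lower and 0, 0, 1 and 1 higher, and NSMCE2, its SUMO ligase, was lower in all 4 clones (-0.30, -0.41, -0.32 and -0.38).

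Most S phase and all G2/M genes of the lists were lower in KO-2, where 7 of 10 cohesin genes were lower. Of 16 S phase genes, 12 were lower in KO-2, with a median log2 change of -0.37, and 0, 3 and 6 in KO-1, KO-3 and KO-4, and 3, 0, 1 and 1 were higher in KO-1 to KO-4. Of 12 G2/M genes, 12 were lower in KO-2 (median -0.34) and 3, 2 and 3 in KO-1, KO-3 and KO-4, and 1, 0, 3 and 1 were higher in KO-1 to KO-4. The spindle checkpoint kinase BUB1B was lower in all 4 clones, with a log2 change of -0.50 in KO-2 and of -0.13 to -0.14 in the rest. Cyclin E2 (CCNE2) was lower in KO-2 (-0.40) and KO-3 (-0.74) and higher in KO-1 (0.37). The part of cell cycle genes in the fall of cohesin genes was not tested.

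Few introns of these lists were called, as of all introns, of which 1.47%, 1.6%, 0.713% and 1.97% were called. In the cohesin pathway list 0 of 58, 65 and 62 introns were called in KO-1, KO-2 and KO-3 and 1 of 74 in KO-4, CHTF18 intron 8 (chromosome 16, 791371 to 791850). CHTF18 belongs to the clamp loader that helps establish cohesion, and its level went from 39.9% ± 5.64 in WT to 55.2% ± 2.72 in KO-4 (log2 odds 0.90 ± 0.24, adjusted p = 0.022). None of the condensin, SMC5/6 or G2/M introns was called in any clone. In the S phase list 1 of 57, 0 of 63, 1 of 63 and 1 of 68 introns were called in KO-1 to KO-4. Intron 3 of TYMS, the thymidylate synthase gene, was lower in KO-1, at 0.713% ± 0.274 against 1.73% ± 0.536 in WT (adjusted p = 0.019), and was named after its values were seen. Intron 1 of CCNE2 (chromosome 8, 94894248 to 94895176) rose from 10.2% ± 2.92 in WT to 34.0% ± 1.13 in KO-3 (adjusted p = 0.012) and 25.3% ± 1.36 in KO-4 (adjusted p = 0.043), and had 23.7% ± 2.39 in KO-2 (adjusted p = 0.12).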

How the data were processed

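Poly(A) RNA of 15 HCT116 libraries was sequenced with a directional kit, per the labels' protocols, which give 3 independent experiments per group. The submitters' processing notes name cutadapt 2.0, STAR 2.7.1a and hg38, with no role for each. The authors deposited 1 table per clone, each against WT, with retained and spliced read counts of 3 libraries in each cell and the lengths that scale them. The deposited p-value and FDR of each intron were made by the authors with a method not given in the sources used here. Libraries carry no replicate number and are named by their place in the list. Every intron in a table has at least 20 junction reads in each library and at least 1 retained and 1 spliced read among the 6 libraries compared, so an intron with no retained read in any of them is not listed.

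Introns were placed on GENCODE 29 transcripts (GRCh38), from which the printed sequences were copied. Here, retention was compared with a quasi-binomial model whose dispersion was moderated by limma 3.58.1 (R 4.3.3), was not allowed under 1, and was fitted on all introns with means of at least 10 retained and 10 spliced reads. Spliced reads per gene were compared with limma on log2 of reads plus 0.5, divided by the median-ratio factor, over genes with a mean of at least 50. Of these, genes with at least 9 introns entered the comparison of the 3′ to the 5′ part. It used limma on the log2 ratio of the unscaled sums, each plus 0.5. Junction choice used the quasi-binomial model. All p-values are two-sided and adjusted by Benjamini-Hochberg over every feature tested, at 0.05. Differences of log2 odds or log2 reads are given with their SE. The labels do not say that the 3 libraries of a clone come from separate isolates, so p-values measure the spread between experiments on 1 isolate. The quasi-binomial intron test of each clone and the limma test of gene reads in KO-2 were run on simulated data with known rises. Falls were not simulated. The tests of slope, of junction choice and among clones, and limma on log2 odds, were not run on simulated data.

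The count model planned for gene reads and its alternatives were not run, and limma took their place. The members and lists were chosen with earlier results of these data known. Named introns were, per gene, the 2 highest in WT of those tested in all clones and the one with the smallest p, and for other lists those past the threshold in most clones. Junction choice, pooled introns and the counts by gene end were added after the data were seen.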

Additional observations from a re-analysis of the deposited data

Results flagged for a closer look

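The difference from WT in spliced reads was not the same in the 4 clones for 8 of the 10 cohesin genes, by a limma test of equality of the clones. The test compares the clones only, but its spread and scaling came from all 15 libraries, WT included. The adjusted p was 3.1e-05 for SMC1A, 0.0018 for SMC3, 9.6e-05 for RAD21 and 0.00011 for STAG2 among the ring subunits. It was 0.024 for the loader NIPBL, 0.0047 for WAPL, 9.9e-05 for PDS5A and 1.5e-05 for ESCO2. NIPBL and WAPL are in this group although neither differed from WT past the threshold in any clone in the main comparison. NIPBL was lowest in KO-2 and highest in KO-3, and WAPL was lowest in KO-2 and highest in KO-1. Of all genes tested, 75.4% passed the same test, so 8 of 10 is near the share of all genes and is not particular to cohesin genes.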

How the results depend on the processing

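No paired analysis was possible because the libraries stand in the tables as lists with no replicate numbers. The planned edgeR fits and the DESeq2 alternative were not run, and limma was used in their place. The lists in the cells were split into 1 count per library, so these fits could have been made. The authors' FDR gave 1 cohesin intron in KO-2 and 1 in KO-4, against 0 here. The median WT retention level per gene, 0.349%, became 0.695% without length scaling and 0.167% as a median over introns. Leaving out 1 library gave 0 to 1 genes with a changed retained share in KO-1 and 1 to 2 genes with fewer spliced reads in KO-1. Calls of fewer spliced reads moved in the other clones too. Without some libraries, the call was lost for STAG1 in KO-2, STAG2 in KO-3, and RAD21 and ESCO2 in KO-4. It was gained for ESCO2 in KO-3. The log2 odds of RAD21 intron 12 then ranged from -0.647 to 0.104 in KO-2, from -0.524 to 0.226 in KO-3 and from -0.402 to 0.348 in KO-4, and of intron 11 from -0.22 to 0.665 in KO-3. With 1 intron per gene, 1, 3, 0 and 0 genes had fewer spliced reads, and the log2 change turned sign for STAG2 in KO-1 (-0.121), SMC1A (0.094), RAD21 (0.038) and ESCO2 (0.003) in KO-3, and SMC1A (0.002) and PDS5B (-0.137) in KO-4. With the 5′ part, 1 gene was lower in KO-1 and 3 in KO-4, and the sign turned for STAG1 (0.058) and NIPBL (0.067) in KO-1, NIPBL (-0.177) and WAPL (0.007) in KO-3, and NIPBL (-0.089) and PDS5B (-0.052) in KO-4. With the 3′ part it turned for PDS5B in KO-1 (0.026), KO-2 (0.088) and KO-3 (0.226). Of these, SMC1A in KO-4 alone had been past the threshold (adjusted p = 0.009, limma), none was past it after turning, and the cause was not tested. Scaling by total spliced reads turned STAG1 in KO-3 (-0.069) and shifted the split of all calls in KO-3 from 1480 lower and 1424 higher to 2237 and 775. Over all alternatives, 41 gene changes lost the call, 6 gained it, 16 turned sign, and 537 are counted as unchanged. The 6 gains were in RAD21 (KO-1 and KO-3), NIPBL and WAPL (KO-2) and ESCO2 (KO-3). Of the 537 unchanged, 14 also turned sign, but were uncalled and moved by under 1 SE. In introns 357 are counted as unchanged, 22 of them with such a turn of sign, and 4 turned sign beyond that. Introns with under 10 retained reads per library, most of these genes' introns, had too few reads to be tested.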
